A study of Mus musculus with 4 samples.

Results

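The receptors and signalling proteins that drive the maturation of medullary thymic epithelial cells (mTECs) were examined as 10 genes. These were listed by their known roles and not by a measured value, although earlier results of these data were known. They were the receptors Tnfrsf11a (RANK), Ltbr (the lymphotoxin beta receptor) and Cd40, the decoy receptor Tnfrsf11b (osteoprotegerin), the adaptors Traf3 and Traf6, the kinase Map3k14 (NIK) and the NF-kB subunits Relb, Nfkb1 and Nfkb2. All 10 were found among the 23366 gene symbols counted, and all 10 were among the 10865 genes with enough reads to test. RNA was sequenced from 4 pools of mTECs, 2 from female and 2 from male mice, and each pool held cells from 10 animals. All mice were wild-type C57BL/6, aged 6 to 8 weeks, and no treatment is given for any of them. Cells were sorted as alive, negative for CD45, positive for MHC class II and low for Ly51. Female pools 1 and 2 gave 3508921 and 1976272 reads on genes and male pools 1 and 2 gave 7103627 and 3344471, so female pool 2 was the least deeply read.

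RANK, CD40 and the lymphotoxin beta receptor belong to the TNF receptor superfamily, and in the thymus their ligands come from lymphoid cells. In a resting cell TRAF3 keeps NIK at a low level by directing it to degradation. When one of these receptors is engaged, TRAF3 is lost, NIK accumulates, and the p100 product of Nfkb2 is processed to p52, which enters the nucleus with RelB in what is called the noncanonical NF-kB pathway. TRAF6 and the products of Nfkb1 belong mainly to the canonical pathway. Mice that lack RelB or NIK are known for a defective thymic medulla, and RANK signalling is known for inducing Aire, the regulator that makes mTECs transcribe tissue-specific antigens. Much of this pathway is controlled at the level of protein, which was not measured here.

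In the NCBIM37 (mm9) assembly, to which the reads were aligned, all 10 are protein-coding genes. Tnfrsf11a lies on the plus strand at chr1:107677300-107744558, Ltbr on the minus strand at chr6:125256589-125263903, Cd40 on the plus strand at chr2:164881127-164898448 and Tnfrsf11b on the minus strand at chr15:54082174-54110039. Traf3 lies on the plus strand at chr12:112404581-112505364, Traf6 on the plus strand at chr2:101518586-101541826 and Map3k14 on the minus strand at chr11:103081076-103128786. Relb lies on the minus strand at chr7:20191566-20214787, Nfkb1 on the minus strand at chr3:135247619-135354511 and Nfkb2 on the plus strand at chr19:46379227-46386580. Exons of Map3k14 share 135 bases with 1700028N14Rik on the same strand, and those of Nfkb2 share 4 bases with Psd on the opposite strand. The library kit does not mark strand, so reads from such shared bases cannot be assigned to 1 gene.

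NF-kB proteins bind a 10-base DNA motif, and several genes of the pathway are known NF-kB targets. RefSeq promoter windows of 300 bases (GRCm38.p6), from 250 bases before to 50 bases after the transcription start, were found for 6 of the 10 genes: Tnfrsf11a, Ltbr, Traf3, Traf6, Map3k14 and Nfkb2. No window was matched for Cd40, Tnfrsf11b, Relb or Nfkb1. The consensus kB motif was searched on both strands, and matches that overlapped were kept. It was present in 4 of the 8 windows, 3 of them belonging to Nfkb2 and 1 to Traf3, against 4.53% of all 32544 promoter windows and 5.17% of all 26742 genes. Nfkb2 has several annotated starts, and 2 of its 3 matching windows overlap and share a match. Shown are the 3 windows that between them hold every distinct match, leaving out the Nfkb2 window whose only match is shared. Each is given 5′ to 3′ on the plus strand, with every base covered by a kB match in capitals:
Nfkb2, first start, chr19:46304487-46304786: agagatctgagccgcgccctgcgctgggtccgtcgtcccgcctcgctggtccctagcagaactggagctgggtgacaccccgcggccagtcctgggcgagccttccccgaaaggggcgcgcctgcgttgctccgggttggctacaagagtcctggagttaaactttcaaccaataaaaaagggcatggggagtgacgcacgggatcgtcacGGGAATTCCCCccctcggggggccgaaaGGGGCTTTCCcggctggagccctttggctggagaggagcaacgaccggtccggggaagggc
Nfkb2, second start, chr19:46305445-46305744: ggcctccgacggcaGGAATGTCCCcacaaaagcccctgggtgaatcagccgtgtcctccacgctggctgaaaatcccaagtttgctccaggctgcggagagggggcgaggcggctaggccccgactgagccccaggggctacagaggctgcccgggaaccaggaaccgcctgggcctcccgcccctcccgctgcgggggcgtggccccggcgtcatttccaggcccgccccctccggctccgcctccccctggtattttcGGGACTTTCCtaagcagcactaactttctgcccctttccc
Traf3, chr12:111166120-111166419: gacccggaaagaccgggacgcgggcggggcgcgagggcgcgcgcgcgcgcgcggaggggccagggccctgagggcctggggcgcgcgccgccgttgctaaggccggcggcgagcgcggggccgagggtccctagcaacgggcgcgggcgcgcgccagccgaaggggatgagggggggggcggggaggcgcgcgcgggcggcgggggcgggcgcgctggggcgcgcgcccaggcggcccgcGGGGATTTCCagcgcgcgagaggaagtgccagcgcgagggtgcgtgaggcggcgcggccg
In the first Nfkb2 window the matches began 39, 38 and 11 bases before the start, and the match that began 39 bases before it read the same on both strands. In the second window they began 236 bases before and 10 bases after the start. The Traf3 match began 10 bases before the start. No occupancy was measured in these cells, so the letters are a description of the windows.

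Before the members were compared, the pools were checked against their label, and markers of other cell types were abundant in all 4. Values below are normalized CPM, which are counts scaled to a common library size after correcting each library for its composition. Where 4 values are listed they stand for female pool 1, female pool 2, male pool 1 and male pool 2. The 9 epithelial markers summed to 376, 650, 418 and 618 CPM. Spint2, a membrane protease inhibitor, was the most abundant of them, at 241, 348, 226 and 306 CPM. The keratins Krt8 and Krt18 followed on average. The 9 mTEC markers summed to 55.5, 126, 73.8 and 112 CPM, 8 of the 9 had reads, and Tnfrsf11a, itself 1 of the 10 genes, is part of this sum. Ccl21a was listed at 0 in every pool. Ccl21a has near-identical copies in the genome, and reads that align to several places were left out of the counts. Aire was the most abundant mTEC marker, at 19.3, 31.7, 19.7 and 28.9 CPM. The 8 B cell markers were higher than these in every pool, with sums of 4571, 3015, 3776 and 2514 CPM and Cd79a, a part of the B cell receptor, as the most abundant.

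Ptprc, which encodes the CD45 protein that the sort gated out, stood at 280, 180, 304 and 219 CPM. The 10 dendritic cell and macrophage markers summed to 1999.6, 3351, 1480.1 and 4429 CPM, led by the lysozyme gene Lyz2. The 5 plasmacytoid dendritic cell markers, led by Irf8 except in male pool 2, where Bst2 was higher, summed to 1055, 1469.7, 923 and 1412 CPM. The 8 thymocyte markers summed to 359, 299, 936 and 382 CPM, and Lck was the most abundant of them in the pools numbered 1 and Cd8a in those numbered 2. Male pool 1 therefore carried the highest thymocyte sum, and both pools numbered 2 carried more epithelial and myeloid marker RNA and less B cell marker RNA than both pools numbered 1. The 7 cortical epithelial markers, led by Ctsl, stayed between 166 and 205 CPM. Fibroblast markers summed to 13.9, 47.0, 71.6 and 79.3 CPM with Dcn first, and endothelial markers to 30.4, 36.6, 32.1 and 28.5 CPM with Pecam1 first and Emcn at 0. CD40, RelB and the other NF-kB proteins are known to be expressed in B cells and dendritic cells as well as in mTECs, so the levels below belong to the sorted pools as a whole.

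**Figure D1:**
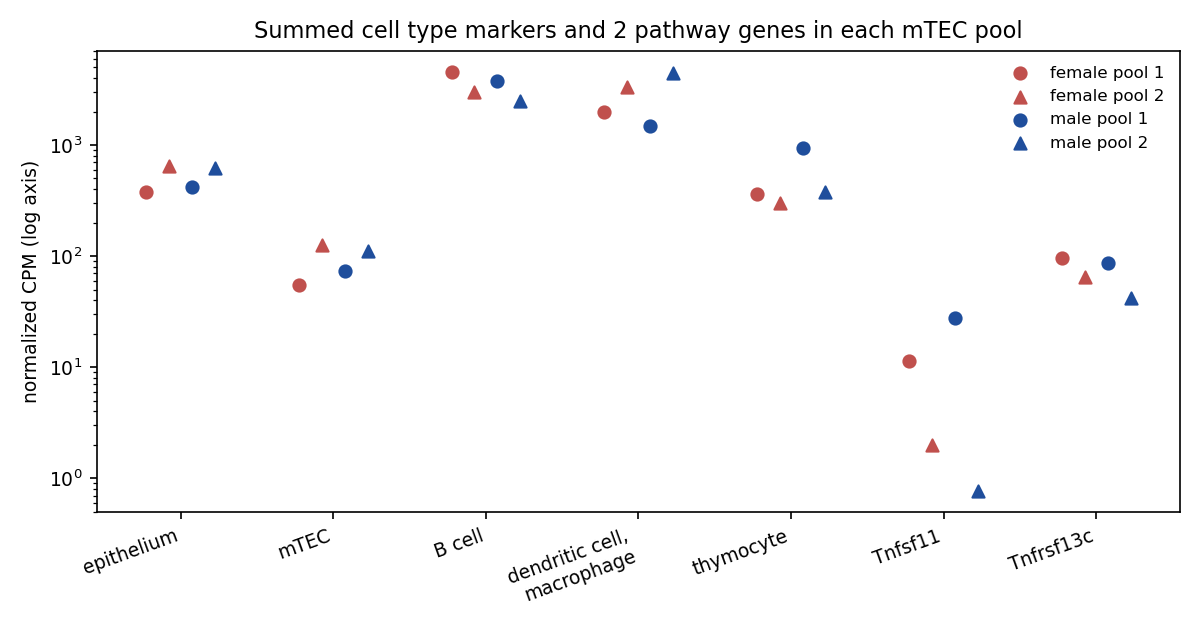
Summed normalized CPM (log axis) of 5 lists of cell type markers, and the CPM of Tnfsf11 and Tnfrsf13c, in each of the 4 pools; circles are pools numbered 1, triangles pools numbered 2, red female and blue male. B cell sums lie from 2514 to 4571 CPM and epithelial sums from 376 to 650 CPM, with the triangles above the circles for epithelium and below them for B cells.

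Levels were then compared between the 10 genes per kilobase of exon, as normalized RPKM, and Cd40, Nfkb2, Relb and Nfkb1 stood above the rest. Cd40 had the highest level, at 108, 112, 88.1 and 100.05 RPKM (mean 102 ± 10.7, SD, n = 4 pools). Nfkb2 followed at 80.9, 81.4, 62.1 and 54.0 RPKM (mean 69.6 ± 13.8), and Relb at 65.0, 82.8, 52.9 and 54.8 RPKM (mean 63.8 ± 13.7). The ranges of Nfkb2 and Relb overlapped, so these partners did not differ beyond their spread, whereas the lowest Cd40 value lay above the highest value of either. Nfkb1 stood apart from its neighbours on both sides, at 21.4, 16.2, 14.98 and 12.9 RPKM (mean 16.4 ± 3.63).

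The remaining 6 genes lay between 2.78 and 7.36 RPKM in all pools and overlapped each other from one to the next. Their means were 5.98 ± 1.37 RPKM for Ltbr, 5.49 ± 0.469 for Traf3, 5.46 ± 0.821 for Traf6, 4.88 ± 0.584 for Tnfrsf11b, 4.55 ± 0.673 for Map3k14 and 3.99 ± 1.26 for Tnfrsf11a (SD, n = 4 pools). Only 3 of the 9 neighbouring pairs in this order had ranges that did not overlap, and the count was also 3 with the length of the longest transcript, although only 3 genes then kept their rank. Among 16535 genes with a length and a read, Cd40 had a higher mean level than 95.7%, Nfkb2 than 94.3%, Relb than 93.8% and Nfkb1 than 82.8%. The 6 lower genes were above 62.1% to 68.6% of these genes.

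**Figure D2:**
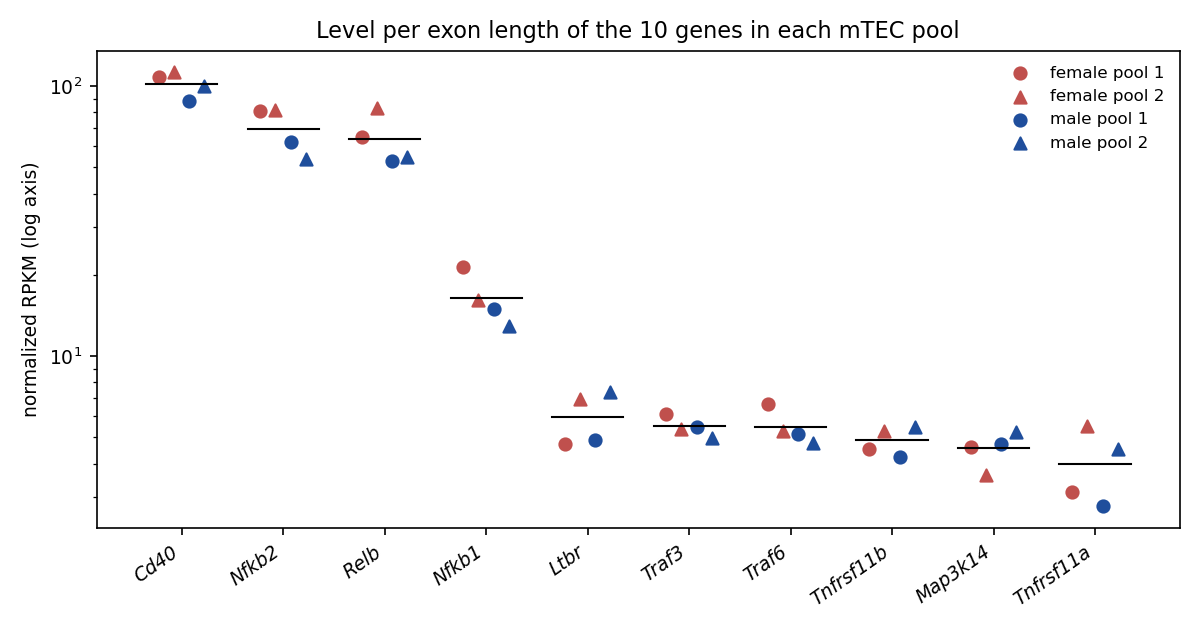
Normalized RPKM (log axis) of the 10 genes in each pool, ordered by mean; circles are pools numbered 1, triangles pools numbered 2, red female and blue male, and the horizontal lines are means over 4 pools. Cd40, Nfkb2 and Relb lie above 50 RPKM in every pool and the 6 genes from Ltbr to Tnfrsf11a below 8 RPKM.

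Ratios between partners were taken per exon length within each pool. Cd40 exceeded Tnfrsf11a by 34.4-fold, 20.4-fold, 31.6-fold and 22.1-fold. Tnfrsf11b, which binds and neutralizes the RANK ligand, was 1.44, 0.955, 1.52 and 1.21 times the level of Tnfrsf11a. The ratio of Nfkb2 to Nfkb1 was 3.78, 5.02, 4.14 and 4.17, so Nfkb2 RNA was above Nfkb1 RNA per exon length in every pool. Nfkb2 and its dimer partner Relb stayed close to parity, at ratios of 1.25, 0.983, 1.17 and 0.985. Relb was 0.894, 1.36, 0.862 and 1.29 times the canonical subunit Rela. Map3k14, the kinase that TRAF3 restrains, was 0.754, 0.672, 0.865 and 1.05 times Traf3. The ratios of Cd40 to Tnfrsf11a, of Tnfrsf11b to Tnfrsf11a and of Nfkb2 to Relb were lower in both pools numbered 2 than in both pools numbered 1. Those of Relb to Rela and, narrowly, of Nfkb2 to Nfkb1 were higher in both. By CPM of single genes, 26.5% of all tested genes lay higher and 29.0% lower in both pools numbered 2. The share among ratios was not counted.

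The study asked whether mTECs of males and females differ in transcription, and for the 10 genes no difference between the sexes passed the test. Differences were tested with the quasi-likelihood test of edgeR with Benjamini-Hochberg adjustment at 0.05. It called 0 of the 10 genes, and 0 of the 10 had an unadjusted p under 0.05; DESeq2 and the exact test of edgeR also called 0. Over all 10865 genes the quasi-likelihood test called 0 (0%), with 48 genes (0.442%) at an unadjusted p under 0.05, whereas DESeq2 called 3 and the exact test 8. The paper lists genes higher in males at a false discovery rate under 0.05 in these libraries, some of them on the Y chromosome. The quasi-likelihood test called no gene at all, so its lack of calls among the 10 genes does not show equal levels. Fold estimates of male over female were below 0 on the log2 scale for 8 of the 10 genes, with a median of -0.24, against 46.8% of all tested genes and a median of 0.027. That count was 9 with library size only, where Ltbr turned, and 6 to 9 with a pool left out. In bulk RNA, fewer cells of a type and less RNA per cell cannot be told apart. The labels give each pool as 10 mice and tag all 4 libraries alike, as 3rdPrep, without saying what the tag covers or whether pools were sorted apart, so p-values measure the spread between the 2 pools of a sex, which may be partly technical.

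Among the receptors, Cd40 was read at 368, 383, 300.0 and 341 CPM, and the male pools stood below the female pools without overlap. Its log2 fold change of male over female was -0.23 (standard error 0.38), and the 95% interval of the fold ran from 0.454 to 1.604. Tnfrsf11a stood at 15.8 and 27.7 CPM in females against 14.0 and 22.7 in males, so the sexes overlapped (log2 fold change -0.25, standard error 0.43). Ltbr, at 11.1 and 16.3 CPM in females and 11.5 and 17.3 in males, overlapped as well (0.06, standard error 0.42). For the decoy receptor Tnfrsf11b the values were 12.8 and 14.8 CPM in females and 11.9 and 15.4 in males (log2 fold change -0.02, standard error 0.37). These 3 genes rest on 30 to 117 reads per pool, and the sign of each turned when a single pool was left out.

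Of the adaptors, Traf6 was lower in both male pools, at 40.5 and 37.7 CPM against 52.5 and 41.6 in the female pools (log2 fold change -0.27, standard error 0.31). Traf3 overlapped between the sexes, at 45.4 and 40.1 CPM in females and 40.7 and 37.0 in males (-0.14, standard error 0.30). Map3k14 was the only member above in both male pools, at 31.1 and 34.3 CPM against 30.2 and 23.8 in females (0.27, standard error 0.31, fold interval 0.717 to 2.02). The male value nearest to the female pools exceeded the higher female value by less than 1 CPM.

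The 3 NF-kB subunits had the lowest estimates. Nfkb2 was read at 266 and 268 CPM in females against 204 and 178 in males (log2 fold change -0.48, standard error 0.36, unadjusted p = 0.225, adjusted p = 1 by edgeR). Relb was read at 253 and 322 CPM in females and 206 and 213 in males (-0.46, standard error 0.37, unadjusted p = 0.265 by edgeR). Nfkb1 was read at 103 and 77.7 CPM in females and 71.8 and 62.0 in males (-0.43, standard error 0.33, unadjusted p = 0.233 by edgeR). The male pools lay below the female pools for all 3, and the fold intervals ran from 0.394 to 1.30 for Nfkb2, 0.392 to 1.35 for Relb and 0.430 to 1.28 for Nfkb1, so equal levels lay inside each.

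Counted over all members, both male pools lay below both female pools for 5 of the 10 genes (Cd40, Traf6, Relb, Nfkb1 and Nfkb2) and above for 1 (Map3k14). The same patterns held for 11.7% and 9.47% of all tested genes. Scaled by library size alone, the counts were 3 (Cd40, Relb and Nfkb2) and 0 members, against 8.99% and 6.11% of all tested genes. Divided by the summed CPM of the epithelial markers, they were 2 (Tnfrsf11a and Relb) and 0 members, against 4.16% and 4.58%. Of the marker sums, those of thymocytes and fibroblasts were higher in both male pools, whereas those of epithelium, mTECs, B cells, dendritic cells and macrophages overlapped between the sexes. The part of cell composition in these values was not tested.

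**Figure D3:**
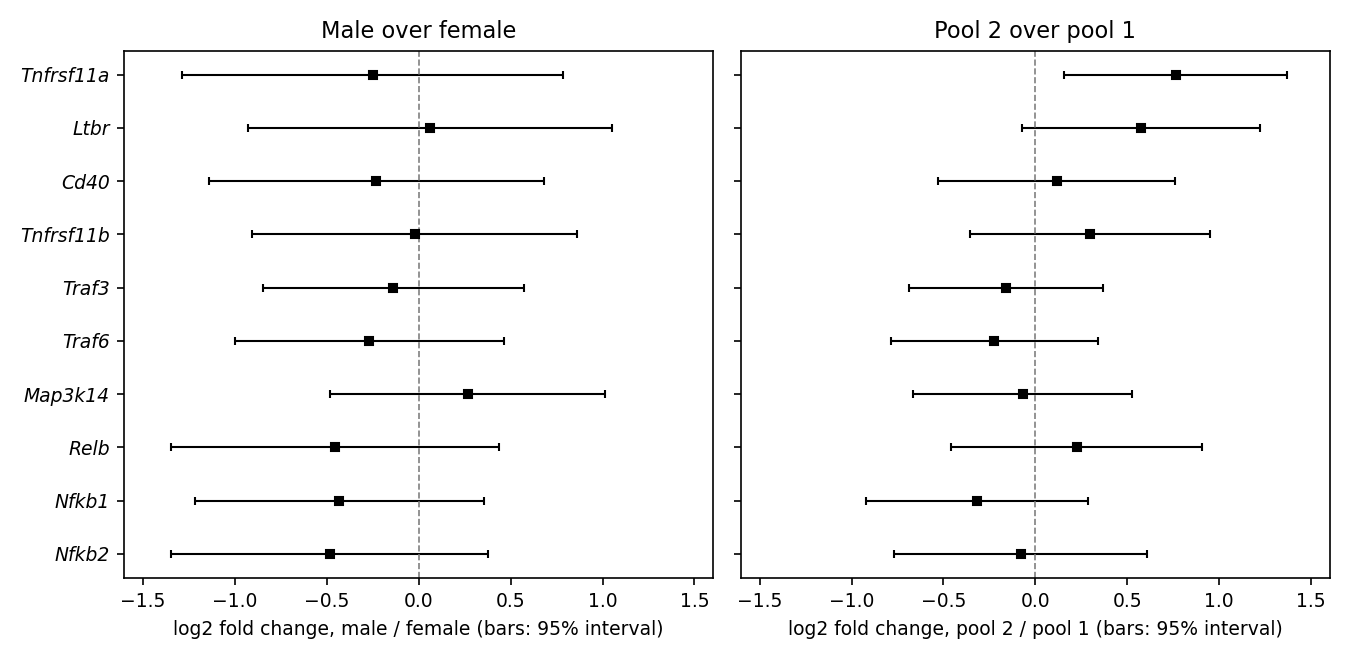
Log2 fold changes of the 10 genes with 95% intervals from the edgeR fits, for male over female on the left and pool 2 over pool 1 on the right; the dashed line marks no change. Every interval in the left panel spans 0, and on the right only that of Tnfrsf11a lies wholly above 0.

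Estimates for Tnfrsf11a, Ltbr, Tnfrsf11b and, by little, Traf3 were further from 0 between pool numbers than between the sexes. For the other members the reverse held. The labels number the pools 1 and 2 in each sex without saying that a number marks a shared day or batch, so the comparison of pool 2 with pool 1 describes the spread within the sexes. Tnfrsf11a was higher in pool 2 than in pool 1 in both sexes, at 27.7 against 15.8 CPM in females and 22.7 against 14.0 in males. Its log2 fold change was 0.76 (standard error 0.27, fold interval 1.12 to 2.58, unadjusted p = 0.0190, adjusted p = 0.135 by edgeR), which did not pass the adjusted threshold. Ltbr had the next largest estimate, 0.57 (standard error 0.29, fold interval 0.949 to 2.33, adjusted p = 0.265 by edgeR). Both pools numbered 2, at 16.3 and 17.3 CPM, lay above both pools numbered 1, at 11.1 and 11.5. Tnfrsf11b, at 14.8 and 15.4 against 12.8 and 11.9 CPM, had an estimate of 0.30 (standard error 0.29).

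For the other members the estimates were smaller or the pools overlapped. Cd40 had a log2 fold change of 0.12, Relb 0.22, Nfkb2 -0.08 and Map3k14 -0.07, each with overlapping pools. Nfkb1 had -0.32 and Traf6 -0.22, also with overlap. Traf3 was lower in both pools numbered 2, at 40.1 and 37.0 CPM against 45.4 and 40.7, with a log2 fold change of -0.16 (standard error 0.23). Over the 4 pools Traf3 was the steadiest member, with an SD of 0.12 on the log2 scale that was smaller in 4.998% of tested genes, and Tnfrsf11a the most variable, with 0.45 and 64.6%. No member was called, and 1 of 10 had an unadjusted p under 0.05. Over all tested genes the same fit called 221 (2.03%), of which 202 were higher in pool 2 and 19 lower, and 2571 (23.7%) had an unadjusted p under 0.05, 14.4% higher and 9.22% lower. The pools numbered 2 lay above both pools numbered 1 for 3 members (Tnfrsf11a, Ltbr and Tnfrsf11b) and 26.5% of all tested genes, and below for 1 member (Traf3) and 29.0%. Scaling by library size alone moved the median of all genes by -0.32 on the log2 scale, to -0.35, and split the calls into 376 higher and 388 lower. Under that scaling 1 member (Tnfrsf11a) lay above in both pools numbered 2, against 15.8% of all tested genes, and 4 (Traf3, Traf6, Map3k14 and Nfkb1) lay below, against 42.2%. Cd40, Tnfrsf11b and Relb had estimates of -0.17, -0.03 and -0.04 there, each above the shifted median.

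Epithelial marker RNA stood higher in both pools numbered 2, as Tnfrsf11a and Ltbr did, with 6 of the 9 epithelial markers higher in both pools numbered 2 and 1 lower in both. Divided by the summed CPM of the epithelial markers, Tnfrsf11a stood at 0.0419, 0.0426, 0.0334 and 0.0368. The same ratio for Ltbr was 0.0296, 0.0251, 0.0274 and 0.0280. On this scale both receptors overlapped between the pool numbers. The divisor rests largely on Spint2, at 241, 348, 226 and 306 CPM, and a sum without Spint2 was not used. The ratio for Cd40 was 0.979, 0.589, 0.717 and 0.551 and that for Tnfrsf11b, which stood higher in both pools numbered 2 by CPM, was 0.0340, 0.0228, 0.0286 and 0.0249. Both were lower in both pools numbered 2, as were those of Traf3, Traf6, Map3k14, Nfkb1 and Nfkb2, so 7 of the 10 members lay below and 0 above. The same ratio lay below for 67.5% of all tested genes and above for 5.82%. Of the 9 mTEC markers, which include Tnfrsf11a and share genes with the epithelial list, 7 were higher in both and 0 lower. All 8 B cell markers were lower in both pools numbered 2, and of the 10 dendritic cell and macrophage markers 6 were higher and 1 lower in both. The shares over all tested genes were 26.5% higher and 29.0% lower. The part of these differences in the values of the 10 genes was not tested.

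A further 44 genes of the pathway were counted by role, from ligands to targets, and 40 of them were tested. Between the sexes 0 of the 40 were called by edgeR's quasi-likelihood test, DESeq2 or the exact test, and 0 had an unadjusted p under 0.05 in the first. Estimates were below 0 for 33 and above 0 for 7, with a median of -0.18, against 46.8% of all tested genes below 0. The count below 0 was 31 to 35 under other scalings, with Birc2, Chuk, Cd80 and Cd86 changing sign, and 26 to 31 with a pool left out. Both male pools lay below both female pools for 9 of the 40 and above for 0, against 11.7% and 9.47% of all tested genes. The counts were 11 and 1 with library size only (8.99% and 6.11%), and 4 and 0 per epithelial marker CPM (4.16% and 4.58%). By TMM-scaled CPM the 9 were the cytokines Lta, Ltb and Tnf, the deubiquitinase Otud7b, the NF-kB inhibitors and cofactors Nfkbib, Nfkbid, Nfkbiz and Bcl3, and the MHC class II invariant chain Cd74.

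Ligands of these receptors differed widely in level. Ltb, a subunit of the ligand of the lymphotoxin beta receptor, was at 299 and 324 CPM in females against 251 and 205 in males, without overlap between the sexes. Per exon length it exceeded its receptor Ltbr by 18.4-fold in male pool 2 to 41.6-fold in female pool 1. Tnf was at 306 and 274 CPM in females and 152 and 256 in males, and Lta at 21.7 and 25.2 against 17.7 and 20.8. Cd40lg, the ligand of CD40 made by T cells, had 2, 0, 22 and 0 reads and was not tested, nor was Tnfsf14 (LIGHT), another ligand of the lymphotoxin beta receptor, with 7, 2, 21 and 4 reads. A count of 0 allows up to 3 reads, or 1.48 CPM in female pool 2 and 1.16 in male pool 2, which covers counting error only.

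Tnfsf11, the RANK ligand, was the 1 gene of the 40 that passed the test between pool numbers. It had 42, 4, 230 and 2 reads, or 11.4, 1.98, 27.5 and 0.770 CPM, so both pools numbered 1 were above both pools numbered 2. It fell by 3.90 on the log2 scale in pool 2 (standard error 0.65, adjusted p = 0.0391 by edgeR), against 0.175% of all tested genes called lower. Without male pool 2, which leaves 1 pool numbered 2 with its spread taken from the pools numbered 1, the estimate was -3.34 and the adjusted p 0.0645 by edgeR. A prior count of 2 gave -3.51, and the 2 pools numbered 2 held 6 reads in all. Between the sexes its estimate was 1.07 (adjusted p = 1 by edgeR), and with a pool left out its lowest value was -3.18 (male pool 1 absent) and its highest 2.89 (female pool 1 absent). It passed the threshold without male pool 1 (adjusted p = 0.0454 by edgeR) and, at 1.90, without male pool 2 (adjusted p = 0.00106), where 1 male pool was assumed to vary as the female pools did. A single pool thus decided its direction. The ratio of Tnfsf11 to Tnfrsf11a per exon length was 1.63, 0.160, 4.42 and 0.0761 in the 4 pools. Of the 8 thymocyte markers, 3 (Cd3e, Cd3g and Lck) were lower in both pools numbered 2, 1 (Cd4) was higher in both and the other 4 overlapped, as did the sums of 359, 299, 936 and 382 CPM. Lck was at 124, 67.8, 278 and 50.4 CPM, Cd3g, a chain of the T cell receptor complex, at 63.1, 27.7, 251 and 36.6, and Cd8a at 93.0, 125, 144 and 153. The part of thymocyte RNA in the Tnfsf11 difference was not tested.

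Tnfsf13b (BAFF), a B cell survival factor that falls outside the rule for named genes and was named after its values were seen, was at 3.53 and 3.11 CPM in the pools numbered 1 and 8.41 and 8.47 in those numbered 2. Its log2 fold change was 1.36 (adjusted p = 0.0896 by edgeR). Tnfrsf13c, the BAFF receptor of B cells, stood at 96.2 and 87.6 CPM in the pools numbered 1 and 64.3 and 41.6 in those numbered 2 (-0.80, adjusted p = 0.126 by edgeR). The other receptors were led by mean level per exon length by Tnfrsf1b, a TNF receptor, with a mean of 53.7 ± 10.8 RPKM, and Tnfrsf12a, the receptor of TWEAK, with 38.1 ± 5.06 RPKM (SD, n = 4 pools). All 5 receptors of this list had male over female estimates below 0, from -0.34 to -0.12, and each overlapped between the sexes. Only 3 of the 5 stayed below 0 without female pool 2 or without male pool 2.

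Among the TRAF proteins, IAPs and deubiquitinases, Traf1 had the highest mean level per exon length, 70.9 ± 10.4 RPKM, ahead of Tnfaip3 at 62.7 ± 33.0 (SD, n = 4 pools), which was above it in female pool 1. Tnfaip3 (A20), an inhibitor of NF-kB signalling and itself an NF-kB target, ranged from 262 CPM in male pool 2 to 802 in female pool 1, and its estimate in pool 2 was -0.91 (adjusted p = 0.207 by edgeR). Birc3, which ubiquitinates NIK together with TRAF3, stayed at 122 to 168 CPM. Between the sexes 7 of the 8 genes of this list had estimates below 0, with a median of -0.18. That count was 6 with DESeq2, where Birc2 turned, and 4 without female pool 2, where Traf1, Traf2 and Traf5 turned. Of the kinases, Chuk (IKK alpha), which phosphorylates p100 downstream of NIK, was at 47.8 and 42.9 CPM in the pools numbered 1 and 20.3 and 25.8 in those numbered 2. Its estimate was -0.97 (standard error 0.25, adjusted p = 0.0704 by edgeR), and that of Map3k7 (TAK1) was -0.70 (adjusted p = 0.149 by edgeR), and neither passed the threshold. Chuk passed it with library size only, without a filter and with the exact test, runs that each called more genes over all than the main fit. Both genes passed it without female pool 2. That fit leaves male pool 2 as the only pool numbered 2, with its spread taken from the pools numbered 1. Ikbkb (IKK beta) stayed at 80.1 to 97.6 CPM. Of the 7 genes of the IKK and TAK1 kinase complexes, 4 had estimates below 0 between the sexes. Chuk turned under library size only, upper-quartile scaling and the filter at 1 CPM. The count was 1 without female pool 1 and 5 without female pool 2.

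The other NF-kB subunits Rel and Rela were as abundant as Relb per exon length, at 60.1 ± 8.84 and 59.3 ± 12.5 RPKM (SD, n = 4 pools). Both had male over female estimates below 0, that of Rel turning without female pool 1, and both overlapped between the sexes. The IkB family had estimates below 0 for 6 of 6 genes, with a median of -0.41, although Nfkbie turned without female pool 2 or without male pool 2. In 4 of the 6 both male pools lay below both female pools, against 11.7% of all tested genes. Nfkbia, which encodes the inhibitor IkB alpha and is an early NF-kB target, was the most abundant, at 3854 and 3134 CPM in females and 1753 and 3297 in males, so its low value came from male pool 1 alone. Nfkbid was at 486 and 476 CPM in females and 402 and 330 in males, and Nfkbib at 254 and 309 against 211 and 231. None of the 6 had an unadjusted p under 0.05.

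**Figure D4:**
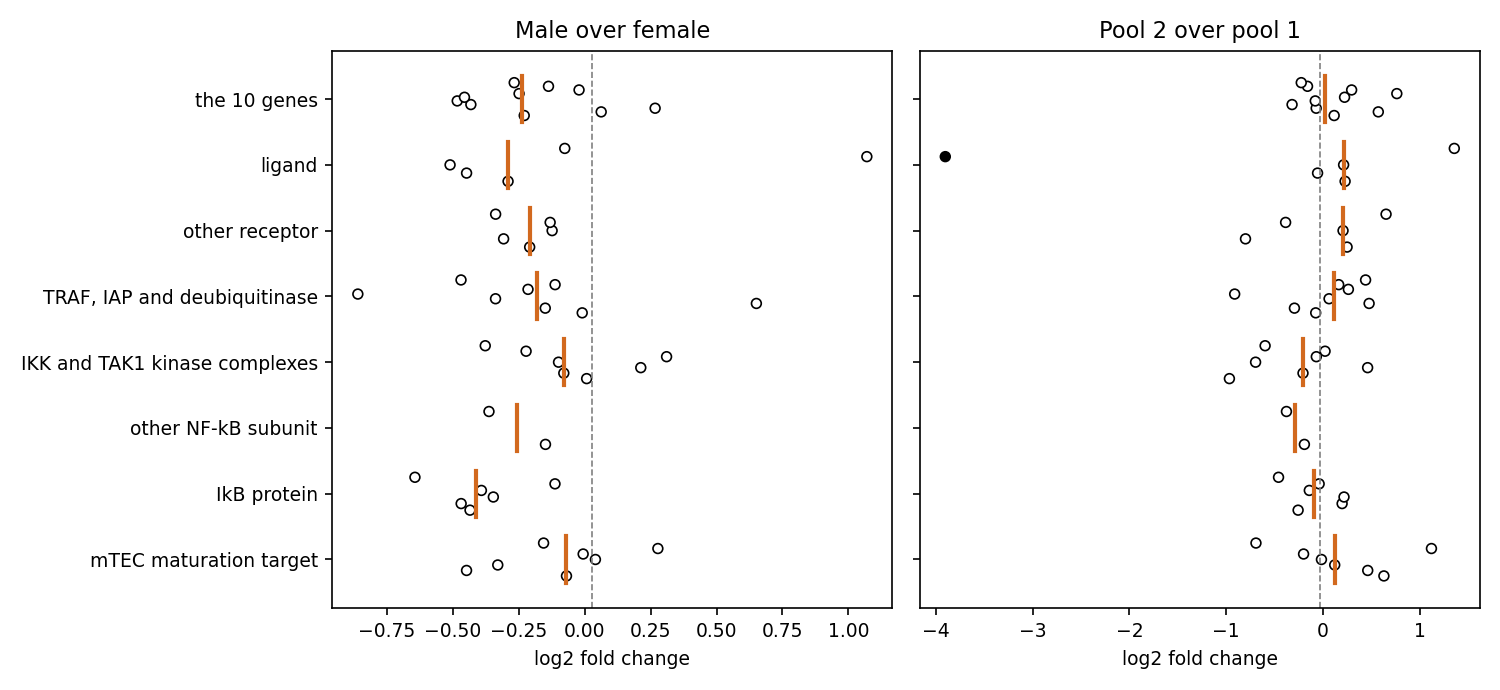
Log2 fold changes of the 10 genes and of the 40 tested pathway genes by role, for male over female on the left and pool 2 over pool 1 on the right; each circle is a gene, filled where called at an adjusted p under 0.05, orange bars are list medians and dashed lines the median of all tested genes. The medians of all 8 lists lie below the dashed line on the left, and Tnfsf11 at -3.90 is the only filled circle.

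Genes that these pathways are known to induce or to support in mature mTECs were the last group, with 7 of 9 tested. Aire itself, at 19.3 and 31.7 CPM in females and 19.7 and 28.9 in males, had a male over female estimate of -0.07 (adjusted p = 1 by edgeR) that changed sign when female pool 2 or male pool 1 was left out. In pool 2 against pool 1 its estimate was 0.63 (unadjusted p = 0.0293, adjusted p = 0.164 by edgeR), and each pool numbered 2 lay above each numbered 1, as for Tnfrsf11a. Fezf2, the other known regulator of tissue-specific antigens, had 1.12 (adjusted p = 0.140 by edgeR), and its values were 4.35, 16.8, 9.68 and 15.4 CPM. Spib, a transcription factor of mTECs, B cells and plasmacytoid dendritic cells, went the other way at 119, 87.6, 123 and 62.4 CPM, with -0.69 (adjusted p = 0.150 by edgeR). The costimulatory genes Cd80 and Cd86 had -0.02 and -0.20, the chemokine Ccl22 0.46 and Cd74 0.12. Cd74 was the most abundant gene of these lists, at 34172 to 48025 CPM, and both male pools lay below both female pools. Ccl19 had 0, 4, 1 and 4 reads, and Ccl21a none. Counting all 40 genes, 3 higher (Tnfsf13b, Aire and Fezf2) and 6 lower (Tnfsf11, Tnfrsf13c, Tnfaip3, Chuk, Map3k7 and Spib) in pool 2 had an unadjusted p under 0.05, against 14.4% and 9.22% of all tested genes. Of those not called, Tnfsf13b, Tnfrsf13c, Tnfaip3, Chuk, Map3k7, Spib and Fezf2 each passed the adjusted threshold in 1 or more alternatives, and Aire in none. Without female pool 2, Cyld, Bcl3, Tnfrsf1b and Rela also passed it. That fit leaves male pool 2 as the only pool numbered 2, with its spread taken from the pools numbered 1. It called more genes over all than any other fit with a pool left out. In the main fit the estimates of these genes were 0.48, -0.26, -0.39 and -0.38. Those of Cyld and Bcl3 changed sign without male pool 2.

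The tested genes most like 3 members over the 4 pools were found by the root mean square difference of log2 CPM after centring each gene on its mean. A profile of 4 points is matched closely by many genes, and the names are a description. Nearest to Tnfrsf11a among 10864 genes were Arhgap28 (difference 0.0148), Lgals3bp (0.0258) and Rasa4 (0.0287). Nearest to Cd40 were Ypel2 (0.00368), Tspyl2 (0.0156) and Gas2l3 (0.0192). Ypel2 was at only 2.99 to 3.96 CPM and Gas2l3 at 3.11 to 3.96. In female pool 2, where 1 read is 0.495 CPM, both rest on few reads. Nearest to Relb were Snx11 (0.0101), Abca7 (0.0130) and Oma1 (0.0249). Lgals3bp, a secreted glycoprotein, followed the profile of Tnfrsf11a at 332, 577, 294 and 454 CPM.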

How the data were processed

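RNA of mTECs sorted from pools of 10 mice was sequenced in 4 libraries, 2 per sex, made with the SMARTer Ultra Low kit. The authors trimmed reads with Trimmomatic, aligned them to mm9 with TopHat2 and counted them with HTSeq-count, and the deposited values are raw read counts per gene symbol. Versions, annotation and the strand setting are not given in the sources used here. A further 5 rows of unassigned reads, 66.9% to 70.2% of a library, were left out. All pairs of pools differed beyond counting noise (chi-square per degree of freedom at least 10.4), so all 4 were kept.

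Counts were tested with edgeR 4.0.16 in R 4.3.3 (quasi-likelihood test, two-sided, TMM normalization, filterByExpr with a minimum count of 10, prior count 0.125, Benjamini-Hochberg adjustment at 0.05), with sex as the only term, or pool number as the only term. The biological coefficient of variation was 0.349 between pools of a sex and 0.218 in the fit by pool number. A standard error is the estimate over the square root of the F statistic. TMM factors in females were 1.05 and 1.03, and in males 1.18 and 0.780. RPKM used merged exons of the NCBIM37 annotation, in which 21048 symbols (90.1%) were found once. The scripts were tested on simulated data.

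Genes named are the 10 members, pathway genes past the adjusted threshold, the 3 most abundant of each pathway and marker list, all maturation targets, markers at 0, and the 3 genes nearest to Tnfrsf11a, Cd40 and Relb. Tnfsf13b, Tnfsf14, Cd40lg, Otud7b, Nfkbiz, Bcl3, Birc2, Cyld, Traf2, Traf5, Nfkbie, Cd3e and Cd4 were named after their values were seen. The members and lists were chosen with earlier results of these data known. Alternatives were upper-quartile normalization, library size only, DESeq2 1.42.0, no filter, genes above 1 CPM in 2 or more pools, the exact test, a prior count of 2, pool number as a replicate block, and each pool left out. Counts of members whose groups did not overlap under other scalings, the sum of epithelial markers among them, were added after seeing the data.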

Additional observations from a re-analysis of the deposited data

Results flagged for a closer look

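With TMM scaling the log2 ratio of pool 2 over pool 1 had opposite signs in the sexes for Map3k14 and Nfkb2. For Map3k14 it was -0.345 in females and 0.142 in males, and for Nfkb2 0.00864 in females and -0.202 in males. The female value of Nfkb2 is within counting error of 0, since its 541 reads in female pool 2 have a 95% Poisson interval of 496 to 589. With library size only the signs of these genes did not differ, at -0.381 and -0.460 for Map3k14 and -0.0274 and -0.804 for Nfkb2. Other members then had opposite signs in females and males. They were Ltbr (0.515 and -0.00633), Cd40 (0.0214 and -0.418), Tnfrsf11b (0.181 and -0.235) and Relb (0.314 and -0.549). With 1 pool behind each value, the difference between the sexes was not tested.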

How the results depend on the processing

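No member was called in either comparison under any alternative run, and at most 2 of the 10 had an unadjusted p under 0.05. With 2 pools per group the fold intervals of members between the sexes reached from 0.392 (Relb) to 2.08 (Ltbr). Folds inside the interval of a gene are compatible with its values. The adjusted threshold over all tested genes is stricter than these intervals, and the smallest detectable change was not estimated. The smallest library leaves Ltbr and Tnfrsf11b with about 30 reads in female pool 2.

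Between the sexes the count of called genes, 0 of 10865, became 5 with library size only (3 higher, 2 lower), 3 with DESeq2 (2 and 1), 26 without a filter (24 and 2), 8 with the exact test (6 and 2) and 0 to 646 with a pool left out, 646 without male pool 1 and 70 without male pool 2. Between pool numbers the 221 calls became 764 with library size only (376 higher, 388 lower), 651 with DESeq2 (586 and 65), 1504 without a filter (1035 and 469), 1138 with the exact test (868 and 270) and 174 to 2620 with a pool left out, 2620 without female pool 2. Called pathway genes ranged from 0 to 1 between the sexes with a pool left out, and between pool numbers were 3 with library size only, 5 without a filter, 3 with the exact test and 0 to 9 with a pool left out, 9 without female pool 2 and 0 without male pool 2.

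Pool numbers are shared between the sexes, but with 2 pairs and no stated link the pools share only a number. The pool 2 minus pool 1 differences of the sexes correlated at 0.52 over 10865 genes, which are not independent. With pool number as a replicate block 17 genes were called between the sexes (15 higher, 2 lower), and with sex and pool number in the fit 807 between pool numbers (648 and 159), and the block called no member.

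Scaled by library size only, 3 members were below (8.99% of all tested genes) and 0 above (6.11%) in both male pools, and 1 was above (15.8%) and 4 below (42.2%) in both pools numbered 2. With upper-quartile scaling 6 were below (Cd40, Traf3, Traf6, Relb, Nfkb1 and Nfkb2, 12.0%) and 1 above (Map3k14, 9.42%) in both male pools. That scaling placed 3 above (28.8%) and 0 below (26.1%) in both pools numbered 2. Divided by the epithelial marker sum, 2 were below (Tnfrsf11a and Relb, 4.16%) and 0 above (4.58%) in both male pools, and 0 above (5.82%) and 7 below (67.5%) in both pools numbered 2. Under library size only, the male over female log2 fold change of Ltbr was -0.0616, and the pool 2 over pool 1 values were -0.17 for Cd40, -0.0339 for Tnfrsf11b, -0.0380 for Relb and -0.16 for Cd74. DESeq2 gave 0.0153 for Cd80.

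With a pool left out, male over female estimates ran from -0.61 to 0.22 for Tnfrsf11a, -0.22 to 0.37 for Ltbr, -0.19 to 0.16 for Tnfrsf11b, -3.18 to 2.89 for Tnfsf11 and -0.39 to 0.34 for Aire. Pool 2 over pool 1 estimates ran from -0.0376 to 0.26 for Cd40, -0.37 to 0.19 for Map3k14, -0.0732 to 0.49 for Relb, -0.37 to 0.19 for Nfkb2, -0.27 to 0.22 for Cd80 and -0.12 to 0.38 for Cd74. The other members kept their direction under every alternative run. The cause of these changes was not tested.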
